A study of Ovis aries with 16 samples.

Results

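The miR-26 family was examined as the 2 genes listed under that name, MIR26A and MIR26B, out of 105 miRNAs in the table. Both were chosen by name, with earlier results of these data known, and both passed the filter on low values in liver and in muscle. The data are small RNA libraries from 8 female Suffolk sheep, with 1 liver library (tip of the left lobe) and 1 library of vastus lateralis, a thigh muscle, per animal. In the BPA group, 4 animals had mothers injected under the skin every day with bisphenol A (BPA) in corn oil, at 0.5 mg per kg from gestation day 30 to day 90. BPA is a plastics monomer with weak oestrogen-like activity. In the control group, the mothers of 4 animals were given corn oil by the same route. Sampling took place when the animals were about 21 months old and had fasted for 48 hours. Their oestrous cycles had been synchronised with 2 prostaglandin injections 11 days apart, and tissue was taken 24 hours after the second. Each library is a single animal and tissue, and animals are named below by their number in the labels.

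miRNAs guide a silencing complex to messenger RNAs, mainly through a short stretch near their start called the seed. miR-26a and miR-26b carry the same seed and so are predicted to share most of their targets, and their mature forms differ by a few bases outside it. Both are encoded inside genes for small phosphatases that act on the tail of RNA polymerase II. Names and nesting were taken from RefSeq, for the assembly ARS-UI_Ramb_v3.0. MIR26A (gene ID 102465822, precursor of 84 nt) lies within CTDSP2. MIR26B (gene ID 102465823, 85 nt) lies within CTDSP1. RefSeq lists no other miR-26 gene there and 0 miRNAs within CTDSPL, the third phosphatase gene of that group. The family is known for repressing EZH2, a histone methyltransferase, for restraining cell division in liver, for a part in hepatic insulin sensitivity, and for rising as muscle cells differentiate. How reads that fit both genes, or further copies outside the annotation, were counted is not given in the sources used here. Each level and the division of reads between them are uncertain to that extent.

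All levels are deposited normalized counts, which are read counts divided by a size factor of the library. The 8 libraries of a tissue had equal median ratios to that tissue's average (range 0 on the log2 scale), so each tissue had been scaled alone. Reads assigned to miRNAs numbered 94393 to 240815 in control livers and 578150 to 1383538 in BPA livers. In muscle they numbered 471691 to 559705 in controls and 596919 to 1044886 in BPA animals. Per 100 miRNA reads, there were 12.45 to 41.22 reads of small nuclear RNAs (snRNAs) in control livers but 0.1367 to 0.2794 in BPA livers, against 0.2457 to 0.336 and 0.1799 to 0.7564 in control and BPA muscle. Depth thus moved with treatment in both tissues, without overlap, and snRNA content moved with it in liver. Their part in the results below was not tested. The tissue labels were checked against marker miRNAs. MIR194 and MIR148A of hepatocytes summed to 40787 or more in every liver and to 2028 or less in every muscle, and MIR133 of striated muscle was at 717 or less in every liver and at 244661 or more in every muscle.

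MIR26A was the most abundant miRNA in liver. In control livers its value was 52541 in animal 902, 52359 in 908, 45176 in 924 and 57564 in 928. In BPA livers it was 61465 in animal 910, 56406 in 918, 50905 in 977 and 46512 in 984. The 2 groups overlapped, with BPA animal 910 above every control and control 924 below every BPA animal, and MIR26A ranked first in 7 of the 8 livers and second in BPA animal 984. The next miRNA by mean level in liver was MIR148A, at 40814 ± 9008 (SD, n = 8) against 52866 ± 5507 for MIR26A. The MIR26A share of miRNA reads was 14.8 ± 0.958% in controls and 15.5 ± 1.47% in BPA animals (SD, n = 4 each).

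MIR26B was less abundant, and in liver its values spread more between animals. In control livers its value was 19809 in animal 902, 18611 in 908, 15016 in 924 and 26713 in 928. In BPA livers it was 10864 in animal 910, 11330 in 918, 8847 in 977 and 7893 in 984. All 4 BPA livers lay below all 4 control livers, which held for 10.3% of the 78 miRNAs tested. Its rank among the 105 miRNAs was 5 to 9 in controls and 8 to 11 in BPA animals. Its neighbours by mean level over the 8 livers were MIRLET7F above, at 19857 ± 2471, and MIR30A below, at 14261 ± 3823, against 14885 ± 6461 for MIR26B. The spread of MIR26B over livers covered both neighbours.

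**Figure D1:**
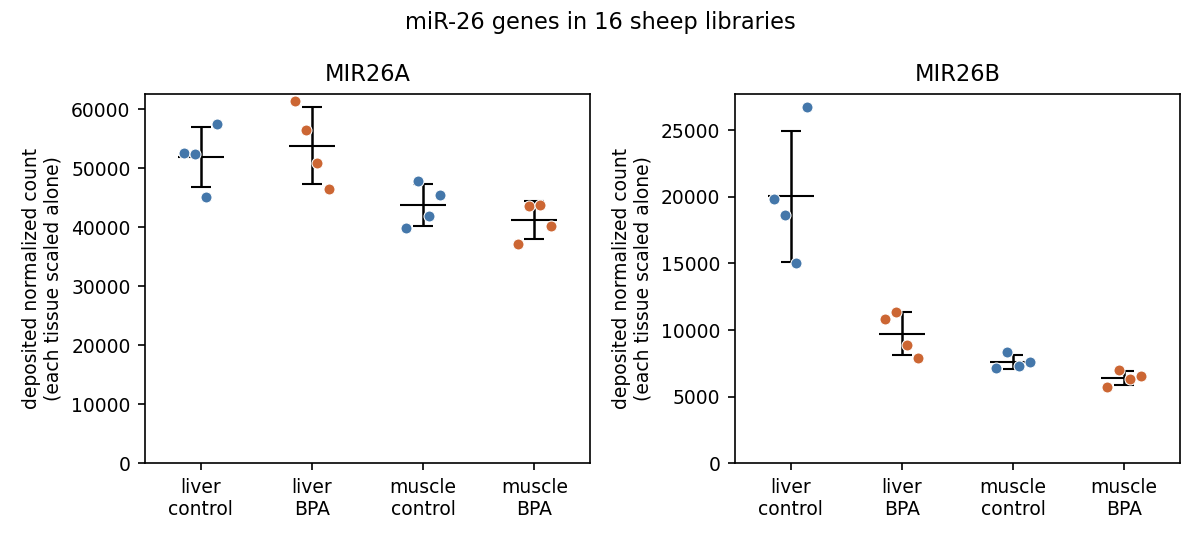
Deposited normalized counts of MIR26A (left) and MIR26B (right) by group. Each point is 1 library, the horizontal bar is the mean of 4 animals and the whisker is 1 SD. MIR26B values of BPA livers reach 11330 at most and those of control livers start at 15016, while the MIR26A ranges of the 2 liver groups overlap. On the deposited scale of each tissue, MIR26B is also lower in every BPA muscle than in every control muscle; with 1 size factor over the 4 tables of the series, the MIR26B difference in liver has the opposite sign.

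The first comparison was BPA against control in liver. MIR26B fell from 20037 ± 4894 to 9734 ± 1633 (SD, n = 4), with a log2 fold change of -1.03 ± 0.20 (SE; limma, Benjamini-Hochberg adjusted p = 0.0055) on the deposited scale, but it was at 0.44 when 1 size factor was set over all 4 tables. In bulk tissue, fewer cells of a type and less RNA per cell cannot be told apart. MIR26A was at 51910 ± 5096 and 53822 ± 6507, a log2 fold change of 0.05 ± 0.14 (limma adjusted p = 0.9069). The 95% interval of that change ran from -0.25 to 0.35, so shifts of this size in either direction were not resolved. Of all 78 miRNAs tested, 11.5% passed, with 6.41% higher and 5.13% lower, and the median log2 fold change was 0.05. MIR26B had the third smallest p. The 9 miRNAs that passed became 5, 4 and 15 when BPA livers 910, 918 and 984 were left out in turn, and MIR26B passed each time.

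In liver the sign of MIR26B changed with 1 size factor over the 4 tables. That of MIR26A changed with quantile normalization, at -0.11 (limma adjusted p = 0.6921). Under 4 other scalings set within the miRNA table, MIR26B stayed between -1.04 and -0.76 and was called each time. Under 1 size factor over the miRNA, snoRNA, snRNA and lncRNA tables together, MIR26B was at 0.44 (limma adjusted p = 0.2318) and MIR26A at 1.52 (adjusted p = 6.38e-05). On that scale the median log2 fold change of all miRNAs was 1.51, and 68 were called higher and 0 lower, against 5 and 4. Relative to the median miRNA, MIR26B was at -1.07 there and at -1.08 on the deposited scale. Relative to it, MIR26A was at 0.002 and -0.004 on these scales.

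**Figure D2:**
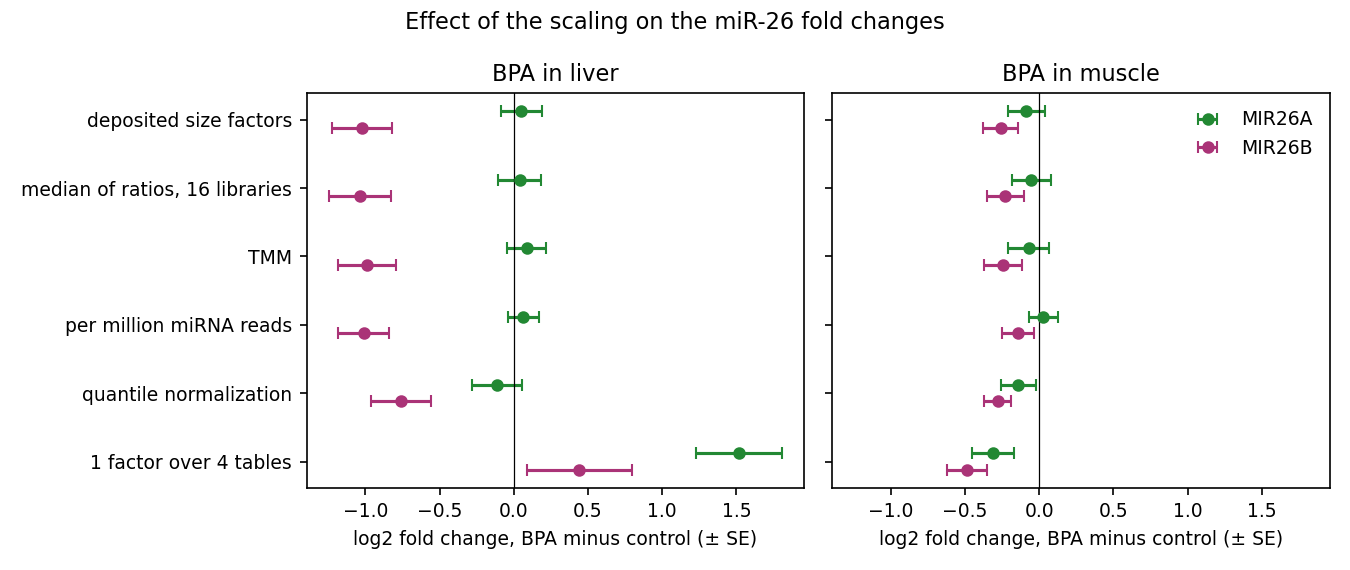
Log2 fold change of MIR26A and MIR26B, BPA minus control, in liver (left) and muscle (right) under 6 ways of scaling the libraries. Points are limma estimates and whiskers are 1 SE. In liver MIR26B is below 0 in all rows except the last, where it is at 0.44 and MIR26A is at 1.52, and MIR26A is below 0 with quantile normalization; in muscle MIR26A is above 0 only when scaled to the miRNA total.

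The ratio of the 2 genes within a library does not depend on any size factor. It shows whether the genes changed unequally, and not which of them changed. Control livers held 2.65 MIR26A reads per MIR26B read in animal 902, 2.81 in 908, 3.01 in 924 and 2.15 in 928. BPA livers held 5.66 in animal 910, 4.98 in 918, 5.75 in 977 and 5.89 in 984. Every BPA liver lay above every control liver, with a gap wider than the range of either group. MIR26B values alone also separated the livers, as for 10.3% of the 78 miRNAs tested. How many other pairs of miRNAs have ratios that separate the groups was not computed. The mean log2 ratio was higher by 1.08 ± 0.12 (SE) in BPA livers, a factor of 2.11. The exact two-sided permutation p was 0.0286, the smallest that 4 against 4 allows, and it was also 0.0286 after adjustment over the 4 ratio tests. MIR26B thus made up 27.6 ± 2.93% of the family's reads in livers of controls and 15.3 ± 0.997% in livers of BPA animals.

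The liver ratios rest on at least 5663 reads of each gene. The library with the fewest was control liver 902, with 15020 MIR26A and 5663 MIR26B reads, and the liver with the most was BPA 910, with 231620 and 40941. The library codes in the labels differ between the groups, so the change was also computed within code ranges. Up to code 79 the control liver had a lower code than the BPA livers, and above 79 the control livers had the higher codes. Control and BPA codes thus did not overlap within either range, so the effects of code and of treatment cannot be told apart there. In codes up to 79 (1 control and 2 BPA livers) the log2 ratio was higher by 1.13 in BPA, and MIR26B was at -1.25. In codes above 79 (3 control and 2 BPA livers) the ratio was higher by 1.01, and MIR26B was at -0.82. MIR26A was at -0.11 in the first range and 0.19 in the second.

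The plot of the ratio by group and by animal shows the gap between control livers and all other libraries.

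**Figure D3:**
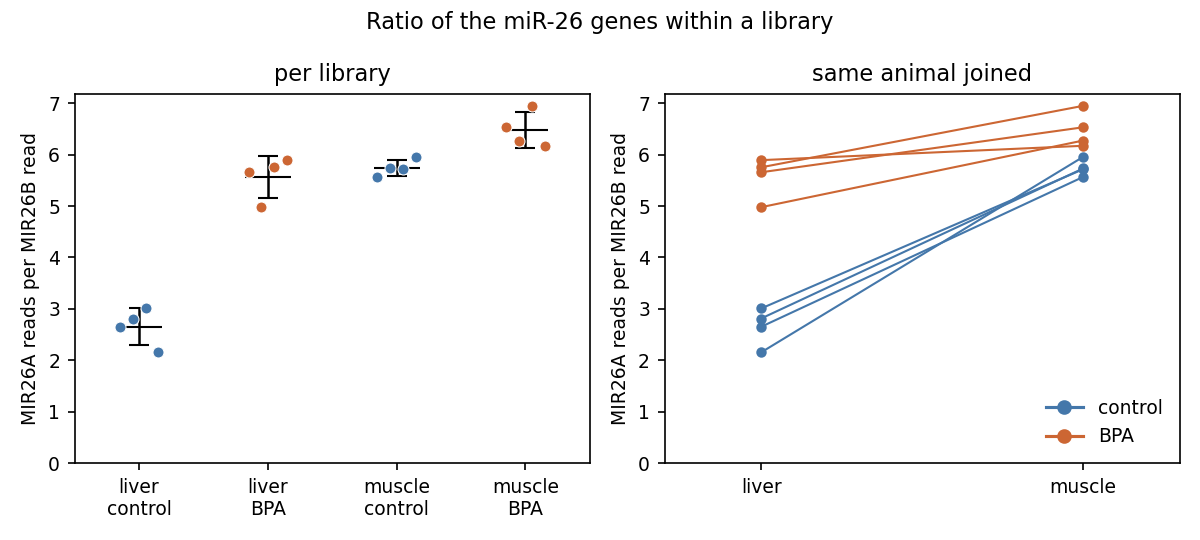
MIR26A reads per MIR26B read. On the left, points are libraries, bars are means and whiskers are 1 SD of 4 animals; on the right, lines join the liver and the muscle of 1 animal. Control livers lie between 2.15 and 3.01, and the other 3 groups between 4.98 and 6.95.

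The second comparison was BPA against control in muscle. MIR26A ranked second in 7 of 8 muscles, below MIR133, which took 43.58 to 57.41% of the miRNA reads there, and at rank 3 in BPA animal 984. The next miRNA by mean level was MIRLET7A, at 29659 ± 7303 (SD, n = 8) against 42503 ± 3410 for MIR26A. MIR26A values were 39867, 47923, 41908 and 45391 in control animals 902, 908, 924 and 928. They were 37225, 43678, 43842 and 40187 in BPA animals 910, 918, 977 and 984. The groups overlapped, and the log2 fold change was -0.09 ± 0.12 (SE, limma adjusted p = 0.8461), with a 95% interval from -0.35 to 0.18. The sign turned, at 0.029, when libraries were scaled to their miRNA total.

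MIR26B in muscle was at 7162, 8361, 7330 and 7620 in control animals 902, 908, 924 and 928. In BPA animals 910, 918, 977 and 984 it was at 5699, 6961, 6309 and 6511. By mean level over the 8 muscles it stood 14th, at 6994 ± 827, between MIRLET7C at 8678 ± 2224 and MIR181A-2 at 5671 ± 636 (SD). The gap to MIRLET7C was smaller than the SD of MIRLET7C. All 4 BPA values lay below all control values, which held for 2.86% of the 70 miRNAs tested, MIR26B and MIR29A. The log2 fold change was -0.26 ± 0.12 (SE), with an unadjusted p of 0.0460 and a limma adjusted p of 0.7060, so it did not pass. In this tissue, as in the plot of fold changes against level, limma called 0 of 70 miRNAs, and 3 had an unadjusted p under 0.05. On no scale tried did MIR26B pass in muscle (log2 fold change from -0.49 to -0.14).

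**Figure D4:**
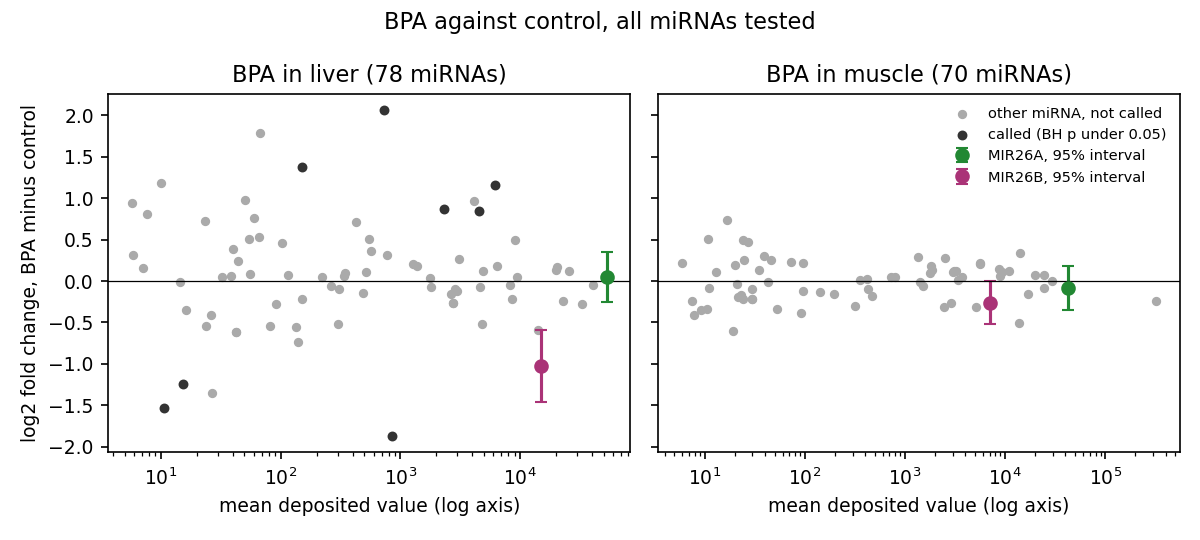
Log2 fold change (BPA minus control) of all miRNAs tested against their mean deposited value, in liver (left, 78 miRNAs) and muscle (right, 70 miRNAs). Grey points did not pass limma, black points did, and the 2 coloured points are the miR-26 genes with 95% intervals. On this deposited scale MIR26B is at -1.03 in liver, where it is at 0.44 with 1 size factor over 4 tables, and at -0.26 in muscle; MIR26A is near 0 in both.

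The ratio separated the muscle groups as well. Control muscles held 5.57, 5.73, 5.72 and 5.96 MIR26A reads per MIR26B read, and BPA muscles 6.53, 6.27, 6.95 and 6.17, in the order of animals given above. No BPA value overlapped the control range. MIR26B values alone also separated the muscles, as for 2.86% of the 70 miRNAs tested, so the ratio partly repeats that result. Ratios of other pairs of miRNAs were not computed in muscle either. The log2 ratio was higher by 0.17 ± 0.04 (SE), a factor of 1.13 (exact permutation p = 0.0286, adjusted 0.0286 over the 4 ratio tests). MIR26B made up 14.8 ± 0.352% of the family's reads in control muscle and 13.4 ± 0.606% in BPA muscle. The library codes run from 73 to 76 in control muscle and from 77 upward in BPA muscle, so in muscle the effects of code and of treatment cannot be told apart. Depth was also higher in every BPA muscle than in every control muscle, and its part in the ratio was not tested.

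The change of the ratio was larger in liver than in muscle. Per animal, the muscle ratio exceeded the liver ratio by 1.07, 1.03, 0.93 and 1.47 log2 units in controls 902, 908, 924 and 928. The excess was 0.21, 0.33, 0.27 and 0.07 in BPA animals 910, 918, 977 and 984. The difference between these sets was -0.90 ± 0.13 (SE, exact permutation p = 0.0286, adjusted 0.0286). BPA livers, at 4.98 to 5.89 MIR26A reads per MIR26B read, overlapped the control muscles, at 5.57 to 5.96. For MIR26B alone the BPA by tissue interaction was 0.77 ± 0.24 and did not pass (limma adjusted p = 0.1083, with 2.63% of 76 miRNAs called). Those 2 calls became 0 to 9 when each animal was left out (9 without 984). For MIR26A it was -0.14 ± 0.17 (limma adjusted p = 0.7177). With libraries scaled to their miRNA total, the MIR26B interaction was 0.87 and passed (limma adjusted p = 0.0221). With 1 size factor over 4 tables it turned to -1.21, and that of MIR26A was -2.11 (limma adjusted p = 0.0036 and 7.79e-06).

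Between the tissues, levels depend on how liver and muscle are brought to a common scale. The deposited values carry an offset of -0.59 log2 units, muscle minus liver, against median-of-ratios scaling over all 16 libraries. In controls the log2 difference of MIR26B, muscle minus liver, was -1.37 ± 0.17 as deposited (SE, limma adjusted p = 8.70e-07, where 47.4% of 76 miRNAs were called lower and 21.1% higher), -0.80 after that rescaling (adjusted p = 4.40e-04), and 0.046 with 1 size factor over 4 tables. Calls in either direction made up 68.4% as deposited, 16 higher and 36 lower, against 26 and 28 after rescaling. In BPA animals it was -0.60 ± 0.17 as deposited (limma adjusted p = 0.0031) and 0.0065 after rescaling (adjusted p = 0.9836). It was -1.34 scaled to the miRNA total, -1.16 with 1 size factor over 4 tables and -0.83 with quantile normalization (limma adjusted p = 1.37e-07, 2.28e-04 and 3.70e-04). Scaled to the miRNA total, the difference in controls was -2.21. In BPA animals 73.7% of miRNAs were called, with 55.3% lower, or 14 higher and 42 lower as deposited and 25 each way after rescaling. The MIR26A difference turned sign with the scale. It was -0.24 ± 0.12 in controls and -0.38 ± 0.12 in BPA animals as deposited (limma adjusted p = 0.0750 and 0.0077), and 0.32 and 0.23 after rescaling (adjusted p = 0.0229 and 0.0980). With 1 size factor over 4 tables it was 1.17 and -0.94, and with quantile normalization -1.67 and -1.34. The deposited call in BPA animals was lost without animal 910 (-0.27, limma adjusted p = 0.0716). These 2 tissue comparisons share their libraries with the BPA comparisons above.

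The tissue difference in the ratio needs no common scale. MIR26A outnumbered MIR26B more in muscle than in liver in 8 of 8 animals, by a mean of 0.67 ± 0.18 log2 units (SE, exact sign-flip p = 0.0078, the smallest that 8 animals allow, adjusted 0.0286). That mean pools controls, at 0.93 to 1.47, with BPA animals, at 0.07 to 0.33. It lies between the 2 sets, and its SE includes the gap between them. The order of groups by mean ratio was control liver (2.66), BPA liver (5.57), control muscle (5.74) and BPA muscle (6.48). BPA liver and control muscle overlapped, and the other neighbours in that order did not.

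The family as a whole was described by its share of miRNA reads. MIR26A and MIR26B together took 20.4 ± 1.81% in control livers and 18.3 ± 1.87% in BPA livers (SD, n = 4; exact permutation p = 0.1143, adjusted 0.2286 over 6 share tests). In muscle they took 8.15 ± 0.56% and 8.17 ± 0.222% (exact p = 0.9429, adjusted 0.9429). The MIR26B share alone was 5.66 ± 1.03% and 2.80 ± 0.432% in control and BPA livers (exact p = 0.0286, adjusted 0.1714). It was 1.21 ± 0.0659% and 1.09 ± 0.048% in control and BPA muscle (exact p = 0.0571, adjusted 0.1714). None of the 6 share tests passed after adjustment. The exact p of the MIR26B share in liver, 0.0286, is the smallest that 4 against 4 allows. Over 6 tests it adjusts to 0.1714 unless other tests also come near that limit. This test could therefore not pass by itself, and its adjusted p does not show that the share was unchanged. In limma with libraries scaled to their miRNA total, MIR26B in liver was at -1.01 (adjusted p = 0.0034). The MIR26A share in liver and in muscle gave exact p = 0.4571 and 0.7143 (adjusted 0.6857 and 0.8571).

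The spread between animals of 1 group was read from the coefficient of variation. The coefficient of variation of MIR26A was 9.82% in control livers, 12.1% in BPA livers, 8.19% in control muscle and 7.66% in BPA muscle. That of MIR26B was 24.4%, 16.8%, 6.96% and 8.23% in the same order. Control liver 928 had the highest MIR26B value and the lowest ratio of all livers. Without it, the log2 fold change of MIR26B in liver and the gap in the ratio kept their direction, and MIR26B still passed; without any single liver library its limma adjusted p lay between 0.0049 and 0.0205 (7.07e-04 to 0.2318 over all alternatives).

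The miRNAs whose values ran most like each gene over the 8 livers were different for the 2 genes. They were chosen by Pearson's r of log2 values among the other 50 miRNAs with a mean of at least 100, and r is given as a description of libraries that share treatment and depth. For MIR26A these were MIR493 (r = 0.90), MIRLET7F (0.86) and MIRLET7I (0.75). For MIR26B they were MIRLET7G (0.80), MIR99A (0.77) and MIR29A (0.73). MIR26A and MIR26B themselves had r = 0.25 over livers. That r pools control and BPA livers, between which MIR26B did not overlap, and r within a group was not computed. Within control livers both genes ranked the animals in the order 928, 902, 908 and 924. Within BPA livers both were lowest in 984 and next lowest in 977. The low r thus does not show that the genes varied apart between animals of a group. Over the 8 muscles, among 39 others, they had r = 0.78, and each was the second most like the other, after MIRLET7F (r = 0.78 with MIR26A and 0.83 with MIR26B). The third places in muscle were held by MIR133 for MIR26A (0.64) and MIR29A for MIR26B (0.74).

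miRNAs linked to the same biology were read from lists that include MIR26A, MIR26B or both. Of 11 listed miRNAs of insulin action and liver metabolism in the table, MIR26B fell in BPA livers on the deposited scale and 10 did not pass, where 11.5% of the 78 miRNAs tested passed and 5.13% were lower. The 11 include both miR-26 genes, so the only call is a gene already described and no other listed miRNA passed. MIR29B-1 and MIR29B-2, also among the 11, have equal values. The median of the 11 was 0.05, which is the value of MIR26A, and that of all miRNAs tested was 0.05. MIR29A, a regulator of collagen and insulin signalling genes, had a log2 fold change of -0.52 ± 0.18 in liver (SE, limma adjusted p = 0.0790). MIR103 and MIR107, a pair known for lowering insulin sensitivity, were at 0.32 ± 0.25 and 0.11 ± 0.25 (adjusted p = 0.5019 and 0.9028). In BPA muscle 0 of the 11 passed, with a median of -0.18 against 0.01 for all tested.

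Of 7 listed myogenic miRNAs in the table, 0 passed in either tissue under BPA, where 11.5% of all tested passed in liver and 0 of 70 in muscle. Their median log2 fold change was -0.27 in liver and -0.22 in muscle, against 0.05 and 0.01 for all tested. The list includes MIR29B-1 and MIR29B-2, which have equal values in every library, and the near-identical MIR181A-1 and MIR181A-2. Between tissues of controls, 3 of the 7 were higher in muscle and 3 lower, and MIR26A did not pass. Of all 76 tested there, 68.4% passed, with 21.1% higher and 47.4% lower. MIR133 was higher by 10.70 ± 0.48 and MIR181A-2 by 0.83 ± 0.18, while MIR29A was lower, at -0.87 ± 0.14 (SE, limma adjusted p = 2.53e-13, 3.46e-04 and 2.95e-05; deposited scale). Of the 8 miRNAs listed as repressing EZH2, MIR26A and MIR26B were the 2 analysed here. Beside these lists, markers of red cells matched 0 of 3 names.

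Markers of other cell types were read beside the liver result. MIR194 and MIR148A of hepatocytes, 2 of 4 listed, summed to 45135 to 61597 in control livers and 40787 to 66110 in BPA livers. MIR150 of leukocytes, 1 of 4, was at 199.4 to 549.4 and 231.2 to 492.8. MIR221 of endothelium, 1 of 2, was at 345.0 to 730.1 and 435.2 to 703.0, and the stromal MIR143 and MIR199A, 2 of 4, summed to 26709 to 40182 and 27447 to 52968. Those 4 marker sums overlapped between control and BPA livers. The epithelial MIR200A, MIR200B and MIR200C, 3 of 5, summed to 481.6 to 1367 in control livers and 1504 to 1965 in BPA livers, without overlap. Of these, MIR200B was at 294.9 ± 118.8 and 1177 ± 174 (SD, n = 4), while the ranges of MIR200A and of MIR200C overlapped. MIR200B had the smallest p in liver (log2 fold change 2.07, limma adjusted p = 7.08e-04), where 6.41% of 78 miRNAs were called higher. MIR200A and MIR200C were at -0.14 and 0.54 and did not pass (limma adjusted p = 0.9028 and 0.6797). The gap in the sum is thus that of MIR200B and not a shift of the epithelial markers as a set. The share of all miRNAs with such an upward gap is not given here. No matched marker was at 0 in a group. The part of the epithelial markers in the MIR26B result was not tested.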

How the data were processed

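Small RNA libraries were made with a NEBNext kit from total RNA, per the labels' protocols, and 16 libraries were used, 4 per group. The submitters' processing notes list featureCounts 1.6.1, STAR 2.6.0c and cutadapt 3.2, with no roles. Genome build, annotation and normalization tool were not given in the sources used here. Deposited values are normalized counts, a signal scaled by the authors, in 4 tables by RNA class. Divided by the smallest value of its library, every miRNA value was whole within 0.001 (100%), and these quotients are the reads given. The miRNA table holds 105 names, all 105 found in the RefSeq table.

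The main test, two-sided, was limma 3.58.1 under R 4.3.3 on log2(value + 1) with a trended prior variance, for miRNAs with a mean of at least 5 over the libraries fitted, with Benjamini-Hochberg adjustment over all miRNAs tested and a threshold of 0.05. BPA was fitted within each tissue. Tissue contrasts and the interaction used all 16 libraries, without the animal in the fit. Fold changes on this scale understate those of low miRNAs. Ratios and shares were tested by exact permutation (scipy 1.17.1). TMM factors came from edgeR 4.0.16. Alternatives covered the pseudocount, filter, scaling, adjustment, library codes, a replicate block and each animal left out. Only the limma fits of BPA within a tissue were tested on simulated data, drawn at a fixed spread between libraries. The ratio, share, tissue and interaction tests were not.

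Liver and muscle libraries of the same number come from 1 animal, and the ratio tests across tissues paired them. The main limma tissue contrasts and interaction did not pair them, and the replicate block of animals was an alternative. With that block, the MIR26B tissue difference had a limma adjusted p of 3.53e-05 in controls and 0.0090 in BPA animals. Deviations of the liver and muscle library of an animal from their group means correlated by -0.68 to 0.44 across 76 miRNAs. Animals are separate biological replicates; no 2 libraries of a group agreed within sampling noise (chi-square per degree of freedom at least 18.2). Counting precision is limited by the depths given in the report.

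Named miRNAs are the 2 members, their neighbours by mean level, the 3 most alike per tissue, list members that passed and cell type markers; MIR103, MIR107 and MIR29A in liver were named after their values were seen. The members and lists were chosen with earlier results of these data known.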

Additional observations from a re-analysis of the deposited data

Results flagged for a closer look

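The effect of BPA on the log2 ratio of MIR26A to MIR26B differed between the tissues. The muscle effect minus the liver effect was -0.90 ± 0.13 (SE), with an exact permutation p of 0.0286 over the 8 animals, the smallest that 4 against 4 allows. The muscle-minus-liver difference lay between 0.93 and 1.47 in the 4 control animals and between 0.07 and 0.33 in the 4 BPA animals. The muscle effect minus the liver effect ranged from -0.97 to -0.79 when each animal was left out in turn, values with no test because 3 against 4 cannot pass.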

How the results depend on the processing

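The ratio results kept their direction and their side of the threshold with a pseudocount of 1, and the tissue ratio also without pairing by animal (0.67, exact p adjusted to 0.0131). Without single animals the log2 ratio differences were 0.98 to 1.14 in liver, 0.14 to 0.20 in muscle and 0.56 to 0.76 between tissues.

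With 1 size factor over the 4 tables, MIR26B and MIR26A were at 0.44 and 1.52 in liver, at 0.046 and 1.17 between tissues in controls, and at -1.21 and -2.11 in the interaction, and 68 and 70 miRNAs were called in liver and in the interaction, against 9 and 2. With median-of-ratios over 16 libraries the tissue difference of MIR26A was 0.32 in controls and 0.23 in BPA animals, and that of MIR26B 0.0065 in BPA animals; with TMM these were 0.47, 0.32 and 0.10. Scaled to the miRNA total, MIR26A was at 0.029 in muscle and -1.09 between tissues in controls, and the MIR26B interaction was 0.87 and passed. With quantile normalization MIR26A was at -0.11 in liver, -1.67 between tissues in controls and 0.32 in the interaction, where 4 miRNAs were called. With Benjamini-Hochberg adjustment over all RNA classes, 15 miRNAs were called in liver and 5 in the interaction, among them MIR26B (0.77). With the library code range as a covariate 19 were called in liver. With the replicate block of animals 0 were called in the interaction, and no call of MIR26A or MIR26B changed (interaction of MIR26B 0.77, limma adjusted p = 0.2366). Per 100 reads of the other miRNAs without the most abundant, the muscle share difference was -1.34 for MIR26A and -1.93 for both genes.

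Without single animals, MIR26A in liver ranged from -0.017 (without 910) to 0.12, and was at -0.015 without 924. Its tissue difference in BPA animals ranged from -0.44 to -0.27 and did not pass without 910 (limma adjusted p = 0.0716). The miRNAs called ranged from 4 (without 918) to 15 (without 984) in liver, with 5 without 910, and from 0 to 9 (without 984) in the interaction, with 1 without 902, 908 or 977. The muscle share difference ranged from -0.040 (without 924) to 0.30 points for MIR26A and from -0.18 (without 924) to 0.19 for both, with -0.11 without 902, -0.038 without 977 and -0.038 without 984. The cause of these changes was not tested.

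edgeR and DESeq2 count tests were planned but not run on this table, which has too few low values to check that whole reads were recovered.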
